A study of Danio rerio with 14 samples.

Results

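Keratins, claudins and the adhesion gene epcam were examined in the lateral rectus (LR), a muscle that rotates the eye away from the nose, before and after injury in zebrafish. The members were all features of the comparison tables whose symbol begins with krt and a digit, cyt1, cldn or epcam. These were 50 of 31014 features, with 17 keratins, 32 claudins and epcam itself. The fish were sexually mature adults labelled with the actin:GFP genotype in every group. CON was uninjured LR muscle (0 hpi, 4 libraries), H9 was the residue of LR muscle 9 h after part of the muscle on the right side had been cut away (5 libraries), and H18 was the same residue at 18 h (5 libraries). Each library pooled LR tissue from several fish, cut out of frozen head sections by laser microdissection. RNA of every cell type within and along the muscle was thus included, and RNA of tissue beside it could be.

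Keratins are the intermediate filament proteins of epithelial cells. A filament needs a type I and a type II keratin, and the pairs differ between tissues. The pair Krt8 (type II) and Krt18 (type I) is typical of simple, single-layered epithelia, and in fish it is also found in some mesenchymal cells. Skin uses other pairs, in which krt5 marks the basal layer and krt4 and cyt1 the surface layer of zebrafish skin. Claudins are membrane proteins that seal the tight junctions between neighbouring cells or form ion pores in them, and members of the family differ between epithelia, vessels and myelin sheaths. Epcam is an adhesion molecule of epithelial cells.

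All values are FPKM, a fragment count scaled to transcript length and to the upper quartile of gene counts in a library. They are levels per length, as the authors' CuffDiff run gave them with 1 value per group. The libraries of a group had been combined in that value. The authors' own test values were not used. The levels and fold changes are therefore given with no SD, n or p-value, no difference between groups was tested against the spread between libraries, and the depth behind each value is unknown. A member was counted as higher or lower when FPKM plus 0.1 differed at least 2-fold and at least 1 group compared reached 1 FPKM. This limit is passed often in these data. Between CON and H9 it was reached by 50.8% of 15152 features (24.1% higher and 26.7% lower in H9), by 52.9% of 15073 in CON vs. H18 (23.5% higher and 29.4% lower in H18) and by 22.3% of 13887 in H9 vs. H18 (9.69% higher and 12.6% lower in H18). Over these features the median log2 fold change was 0.03, -0.10 and -0.15, in the order of the 3 comparisons. The comparisons against CON share that group. In bulk tissue, fewer cells of a type and less RNA per cell cannot be told apart.

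The labelled tissue was checked against marker lists. Skeletal muscle markers such as ckma and mylpfa were plentiful. Of 11 in the table, 10 reached 1 FPKM, and all 10 were lower in H9 and in H18 than in CON (summed FPKM 14723, 1739 and 919). Leukocyte markers had sums of 28.4, 157 and 198 FPKM, with 7 of 8 higher in H9 and 8 of 8 higher in H18. Over all features past the filter, 24.1% were higher and 26.7% lower in H9, and 23.5% and 29.4% in H18. Gut or pancreas markers (7 in the table) summed to 31.3, 3.51 and 2.34 FPKM, and retina markers (8 in the table) to 31.4, 6.68 and 0.743 FPKM. On the gut or pancreas list, cdx1b was highest in H9 and cel.1 in H18. In CON and H9 the retina sum came mostly from rho (26.9, 5.75 and 0.0843 FPKM). CON was uninjured muscle and H9 and H18 the residue, so tissue beside the cut may differ between groups. The part of such tissue in the values was not tested.

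Among the 50 members, 26 reached 1 FPKM in at least 1 group (10 keratins, 15 claudins and epcam). The other 24 stayed below 1 FPKM in every group, with krt222 just under the limit at 0.9997 FPKM in CON and cldn15a listed at 0 in all groups. At or above 1 FPKM were 23 members in CON, 21 at 9 h and 17 at 18 h. Of all 31014 features, 13112, 12706 and 12298 reached 1 FPKM in the same groups. Of the 50, 7 were higher in H9 than in CON, 9 were lower, 10 were within 2-fold and 24 were under the filter. Over all features past the filter, 24.1% were higher and 26.7% lower. In CON vs. H18, 4 were higher, 15 lower, 6 within 2-fold and 25 under the filter, beside 23.5% and 29.4% of all features. Between H9 and H18, 1 was higher, 7 lower, 13 within 2-fold and 29 under the filter, beside 9.69% and 12.6%. A low gene enters such a count only through the group in which it is high. The counts describe the members and carry no test.

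The simple-epithelium pair had the highest levels at the injured time points. krt8 (Entrez 797433, chromosome 23 of GRCz10, 10314656 to 10319271) was the most abundant keratin in each group, with 167 FPKM in CON, 175 at 9 h and 227 at 18 h. H18 was thus 1.36-fold CON, within the 2-fold limit. Its partner krt18 (Entrez 352912, chromosome 23, 10412886 to 10416783) had 24.5 FPKM in CON, then 74.7 in H9 and 66.5 in H18. krt18 was 3.05-fold higher in H9 and 2.72-fold higher in H18 than in CON, and went from the fifth to the second place among the keratins. The level of krt8 was 6.82 times that of krt18 in CON, 2.35 times in H9 and 3.42 times in H18. desma, which encodes desmin, the intermediate filament protein of muscle, served as a reference, with 146, 138 and 191 FPKM in the same groups. The krt8 level was above that of desma in all 3 groups. vim, the mesenchymal filament gene vimentin, had 16.4, 10.8 and 10.8 FPKM.

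**Figure D1:**
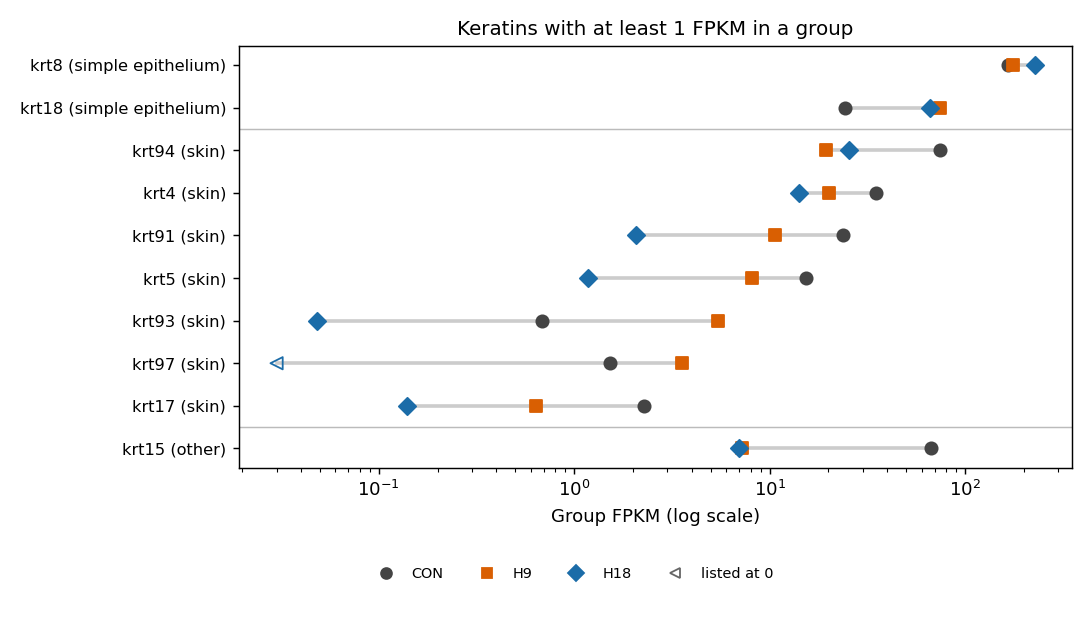
Group FPKM (log axis) of the 10 keratins that reached 1 FPKM, with CON as circles, H9 as squares, H18 as diamonds and an open triangle for a group listed at 0; the class of each gene is in brackets. krt18 was lowest in CON (24.5 FPKM), whereas krt5, krt91, krt17 and krt4 stood at decreasing levels from CON through H9 to H18.

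The skin keratins that reached 1 FPKM had their lowest levels in H18, with 1 exception. Of 13 on the list, 7 reached 1 FPKM in a group, and 6 of these could be compared between CON and H18. All 6 were lower in H18, against 29.4% of all features. Of the 6, krt17 and krt97 were under 1 FPKM in H18, so they entered this count through CON, where they were high. krt5, the type II keratin of the basal layer, had 15.4 FPKM in CON, against 8.13 in H9 and 1.18 in H18, which made H18 13.1-fold lower than CON. krt91, a type I keratin of fish, had 23.9 FPKM in CON, 10.7 at 9 h and 2.06 at 18 h (11.6-fold lower). For krt17, which in mammals is known for its appearance in wounded skin, the values were 2.28, 0.638 and 0.140 FPKM. Levels of these 3 genes stood in the order CON, H9, H18 from high to low. krt5 lies 72.2 kb from krt8 on chromosome 23 (10238228 to 10242467). Among the members, the keratin with the highest level in H18 thus lies next to one that was 13.1-fold lower there than in CON.

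krt4, the type II keratin of the skin surface (chromosome 6, 39310962 to 39315483), had 34.9 FPKM in CON, then 20.1 in H9 and 14.1 in H18, a 2.48-fold difference between CON and H18 in the same order of groups. krt94 (chromosome 11, 11484959 to 11487857) was the exception, with its lowest level in H9. Its values were 74.2, 19.5 and 25.5 FPKM, 3.81-fold lower in H9 and 2.91-fold lower in H18 than in CON. krt93 and krt97 were highest in H9. For krt93 (chromosome 11, 11470929 to 11474589) the values were 0.686 FPKM in CON, against 5.42 in H9 and 0.0482 in H18, so that H9 was 7.89-fold above CON. krt97 (chromosome 22) had 1.53 FPKM in CON and 3.58 in H9 and was listed at 0 in H18. Among the skin keratins under 1 FPKM, cyt1 (0, 0.847 and 0.0563 FPKM), krt96 (0.183, 0.550 and 0.0290 FPKM), krt1-c5 (0.0247, 0.390 and 0.321 FPKM) and cyt1l (0, 0.0724 and 0 FPKM) also had their highest value in H9. The remaining ones, krt95 (0.495, 0 and 0.00421 FPKM) and krt1-19d (0.321, 0.238 and 0 FPKM), were highest in CON.

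krt15 was placed in neither class. In mammals it is a basal keratin of layered epithelia. Its level (Entrez 406844, chromosome 11, 11532157 to 11534822) was 67.2 FPKM in CON, 7.196 at 9 h and 6.98 at 18 h. The differences from CON were 9.35-fold and 9.63-fold, and H9 and H18 were within 2-fold of each other. The lower level was thus already present at 9 hpi. krt5 and krt91, by contrast, were 6.91-fold and 5.19-fold lower in H18 than in H9.

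The simple-epithelium pair made up a larger share of the keratin transcripts in H9 and H18 than in CON. Summed over the 17 keratins, the level was 414 FPKM in CON against 327 in H9 and 344 in H18. krt8 and krt18 together made up 46.3% of the sum in CON, 76.4% in H9 and 85.4% in H18. The 13 skin keratins made up 37.2%, 21.4% and 12.6%, and krt15 16.3%, 2.197% and 2.03%. The skin keratins summed to 154, 70.1 and 43.4 FPKM in CON, H9 and H18, while krt8 and krt18 summed to 191, 250 and 294. A large part of the skin sums came from krt94 alone, with 74.2, 19.5 and 25.5 FPKM. The skin list was set by hand and does not hold krt15, so the skin share depends on the genes placed on it. The sums are free of the filter and of the pseudocount. Keratin genes resemble each other in sequence, and the authors let CuffDiff divide multiply mapped reads between such genes, so a level can hold reads of a close relative.

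**Figure D2:**
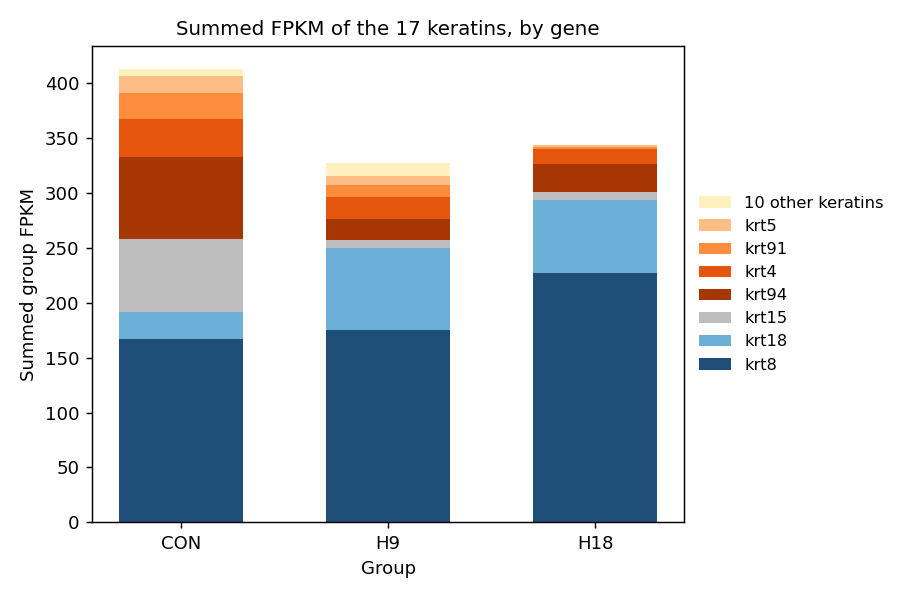
Stacked bars of summed group FPKM (linear axis from 0) of the 17 keratins in CON, H9 and H18, coloured by gene, with the 10 keratins of low level joined in the top segment. krt8 and krt18, the lowest 2 segments, sum to 191 FPKM in CON and 294 in H18, while the krt15 segment is 67.2 and 6.98 FPKM high.

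Skin markers were read beside the skin keratins. Of 11 markers, 3 reached 1 FPKM, and 2 of these were lower in H9 and 3 in H18 than in CON. Over all features past the filter, 26.7% were lower in H9 and 29.4% in H18. tp63 in CON vs. H9 and cdh1 in CON vs. H18 entered these counts through CON alone, where they were high. All 11 together gave 12.998 FPKM in CON against 6.25 in H9 and 5.08 in H18. tp63, the transcription factor of basal skin cells, had 5.86, 0.891 and 2.47 FPKM, itgb4, an integrin of the basal attachment sites, 2.999, 1.18 and 1.42 FPKM, and cdh1 (E-cadherin) 1.53, 1.07 and 0.416 FPKM. The basal keratin krtt1c19e, which the symbol rule leaves out, had 0.345 and 0.402 FPKM in CON and H9, and was listed at 0 in H18. Also under 1 FPKM and highest in H9 were agr1 (0.0103, 0.890 and 0 FPKM), anxa1c (0.326, 0.450 and 0 FPKM), ppl (0.422, 0.579 and 0.542 FPKM) and evpla (0.149, 0.169 and 0.0376 FPKM). The remaining markers agr2, col17a1a and col17a1b were highest in CON. The part of skin tissue in these keratin values was not tested.

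Neighbouring keratin genes did not all follow the same order of groups. Neighbours here are members close in position, and genes outside the symbol rule may lie between them. The keratins lie on chromosomes 11 (4 genes), 19 (5), 22 (3) and 23 (3), with krt4 on chromosome 6 and krt1-c5 on chromosome 5. They form a cluster on each of the first 4 chromosomes, except that krt95 on chromosome 11 lies 672 kb from krt15. On chromosome 11, krt93 and krt94 are 10.4 kb apart. krt93 was at its highest in H9, where krt94 was at its lowest. On chromosome 19, krt17 and krt91 fall within 9.10 kb of each other and both were lower at each later time, whereas cyt1, 2.83 kb from krt17, was highest in H9. On chromosome 22, krt97 and krt96 were both highest in H9, and their neighbour krt222 was highest in CON (0.9997, 0.0897 and 0.0273 FPKM). Of these genes, cyt1, krt96 and krt222 were under 1 FPKM in every group. All levels are single group values, and the difference between neighbours was not tested.

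**Figure D3:**
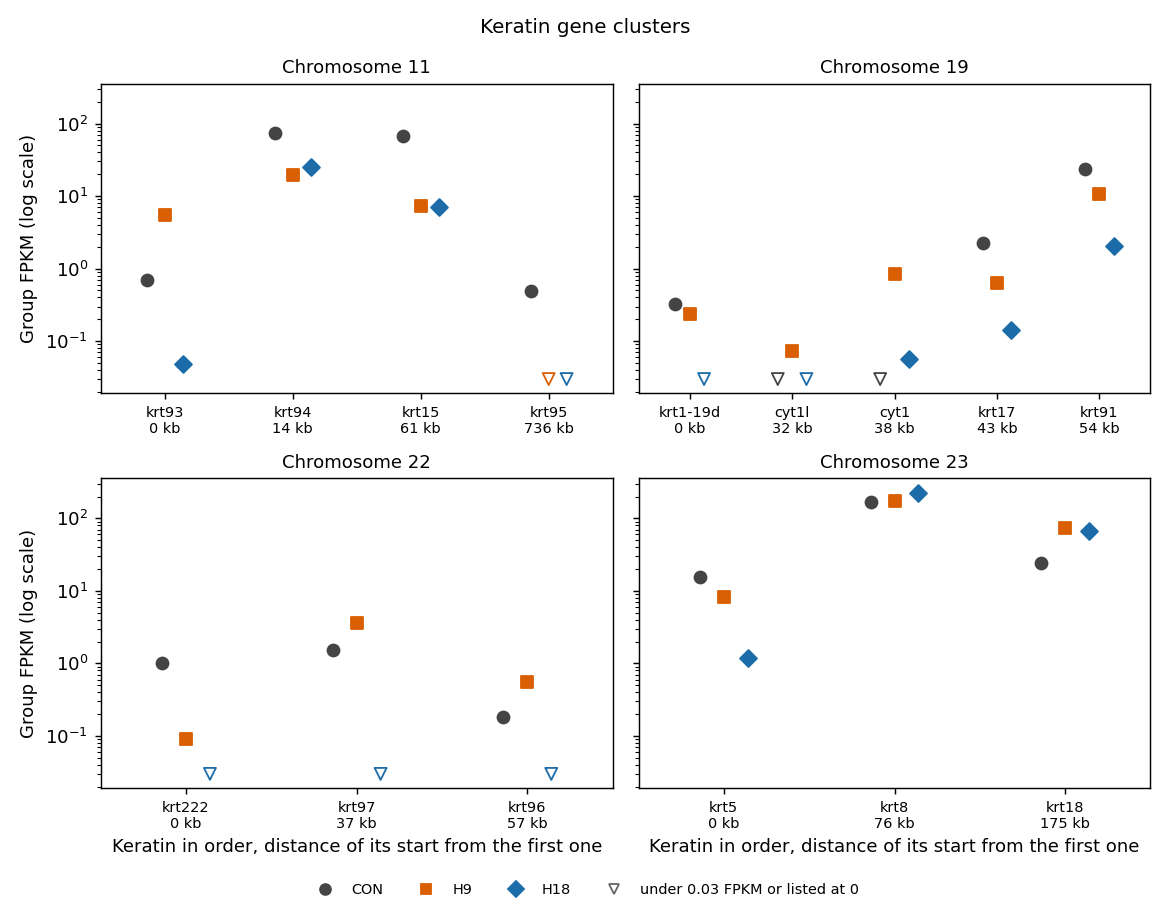
Group FPKM (log axis) of the keratins on 4 chromosomes, in order of position, with the distance of each gene's start from the first gene in kb. Open triangles are values under 0.03 FPKM or listed at 0. Neighbours differ in the group with the highest level, as for krt93 (highest in H9, 5.42 FPKM) beside krt94 (lowest in H9, 19.5 FPKM).

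Claudins had far lower levels than keratins, with sums over 32 genes of 61.0, 56.9 and 38.9 FPKM in CON, H9 and H18. The simple-epithelium claudins and epcam that reached 1 FPKM did not follow krt8 and krt18. Of the 10 members of this kind, 4 reached 1 FPKM in CON, and none of the 4 was higher in H9 or H18. Over all features, 24.1% were higher in H9 and 23.5% in H18. cldn7a, cldn7b and cldnh reached 1 FPKM only in CON, so they entered this count through the group in which they were high. Under 1 FPKM, cldn2 (0.0751, 0.457 and 0.0506 FPKM), cldn15b (0.514, 0.614 and 0.382 FPKM) and cldn15lb (0.00389, 0.0699 and 0 FPKM) were highest in H9. cldnc and cldn15la were highest in CON. cldn7a, whose mammalian relative is a claudin of simple epithelia, had 1.63 FPKM in CON, then 0.302 in H9 and 0.0688 in H18, and its paralog cldn7b had 1.65, 0.951 and 0.314 FPKM. cldnh (named cldn3c in the current RefSeq table) had 1.39, 0.602 and 0.445 FPKM. Each of these 3 was lower in H18 than in CON by the 2-fold limit. For epcam (chromosome 13) the values were 2.13 FPKM in CON, against 1.15 in H9 and 1.25 in H18, within 2-fold throughout. The listed locus of epcam, 6874641 to 9885119, is far longer than a single gene of its kind, so only its chromosome is used here.

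Of the 6 skin claudins, cldnb, cldni and cldne had the same order of groups as krt5 and krt91. cldnb, which in zebrafish is known from skin and from the lateral line, had 2.86 FPKM in CON, 1.46 at 9 h and 0.684 at 18 h (4.18-fold lower than CON). cldni had 1.87, 1.40 and 0.331 FPKM (5.64-fold lower). Only cldnb and cldni among the skin claudins reached 1 FPKM, and cldne, at 0.813, 0.464 and 0.0748 FPKM, lay just below that limit. cldn1, the barrier claudin of mammalian skin, was listed at 0 in CON and H18, with 0.714 FPKM in H9. cldnf was also highest in H9 (0.0161, 0.195 and 0.0107 FPKM), and cldna was lowest there (0.197, 0.119 and 0.128 FPKM).

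Over both families, the median log2 fold change of the skin class was -0.91 for H9 against CON (9 genes), -2.75 in CON vs. H18 (8 genes) and -2.06 in H9 vs. H18 (8 genes). The class included krt97, which was listed at 0 in H18, and without it the last 2 medians were -2.19 and -1.80 over 7 genes. In the simple-epithelium class the medians were -0.78 and -1.08 against CON, over 6 genes, which joined opposite directions. Against CON, krt8 and krt18 had medians of 0.84 (H9) and 0.94 (H18), whereas the 3 claudins and epcam had -0.96 and -1.76. In CON vs. H18, krt17, krt97, cldnb and cldni of the skin class passed the filter through CON alone. The same held for cldn7a, cldn7b and cldnh of the simple-epithelium class. In CON vs. H9, cldn7a, cldn7b, cldnh and krt17 also passed the filter through CON alone, and krt93 through H9 alone. In H9 vs. H18, krt93, krt97, cldnb and cldni of the skin class passed the filter through H9 alone. The medians of CON vs. H18 and H9 vs. H18 thus lean toward lower values in H18. In CON vs. H9, the simple-epithelium medians of -0.78 and -0.96 likewise lean toward lower values in H9. The other skin members in H9 vs. H18 were krt5 (-2.69), krt91 (-2.32), krt4 (-0.51) and krt94 (0.39). The difference between the classes was not tested.

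**Figure D4:**
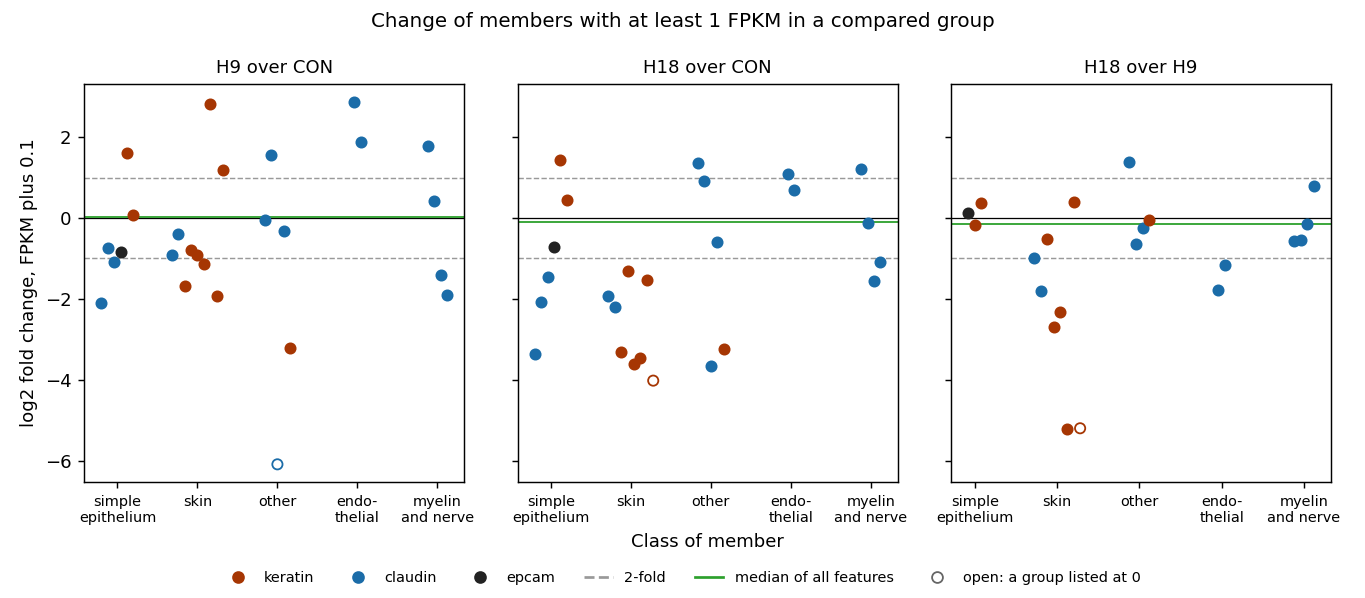
log2 fold change of FPKM plus 0.1 for each member with at least 1 FPKM in a compared group, by class and comparison, with keratins, claudins and epcam in different colours and open points where a group was listed at 0. Dashed lines mark 2-fold, and the green line the median of all features (0.03, -0.10 and -0.15). All 8 skin members in the H18 over CON panel lie below the lower dashed line, against 29.4% of all features. Of these, krt17, krt97, cldnb and cldni were under 1 FPKM in H18 and entered the panel through CON.

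Vessel claudins were highest at 9 hpi. cldn5a and cldn5b are the zebrafish counterparts of claudin 5, which in mammals seals the endothelium of brain vessels. cldn5b (Entrez 450023, chromosome 10, 44147674 to 44149320) had 3.46 FPKM in CON, then 12.9 in H9 and 5.67 in H18, and was the most abundant of the 32 claudins in H9. It was 3.73-fold above CON in H9, and 2.28-fold lower in H18 than in H9. cldn5a (Entrez 406559, chromosome 8, 4641497 to 4643003) had 0.506, 4.35 and 1.20 FPKM, an 8.59-fold difference between CON and H9. The endothelial markers in the same groups summed to 40.0, 45.4 and 27.7 FPKM. Against CON, 0 of 7 were higher and 1 of 7 lower in H9, and 0 higher and 2 lower in H18. Over all features past the filter, 24.1% were higher and 26.7% lower in H9, and 23.5% and 29.4% in H18. kdrl, a receptor for vascular growth factor, had 9.31, 16.8 and 8.52 FPKM, cdh5 (VE-cadherin) 4.88, 5.77 and 1.95 FPKM, and plvapa, a gene of leaky vessels, 10.6, 4.24 and 3.51 FPKM. None of the 7 markers was listed at 0. The part of endothelial cell number in the claudin values was not tested.

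Myelin and nerve claudins differed among themselves. cldn19, which in mammals is found in Schwann cells, was the most abundant of the 32 claudins in CON, with 12.6 FPKM in CON, against 4.67 in H9 and 4.18 in H18. It was 2.69-fold lower in H9 and 3.01-fold lower in H18 than in CON. cldnk, a marker of myelinating glia in zebrafish, had 6.42, 1.64 and 2.94 FPKM, 3.91-fold lower in H9 and 2.18-fold lower in H18. Of the Schwann cell or myelin markers, 5 of 7 were lower in H9 and 4 of 7 in H18, against 26.7% and 29.4% of all features. Their sums were 296, 105 and 63.1 FPKM. On the same list, sox10 (3.79, 4.01 and 3.04 FPKM) and egr2b (3.70, 3.59 and 2.25 FPKM) were within 2-fold in each comparison. mpz, the main protein of peripheral myelin, had 67.1, 20.2 and 11.1 FPKM, and no marker of the list was at 0. The part of myelin or nerve tissue in these claudin values was not tested. The claudin 11 genes were not lower. cldn11b had 8.56, 11.5 and 7.86 FPKM, within 2-fold in each comparison, and cldn11a had 0.817, 3.05 and 2.02 FPKM, 3.73-fold higher in H9 and 2.47-fold higher in H18 than in CON.

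**Figure D5:**
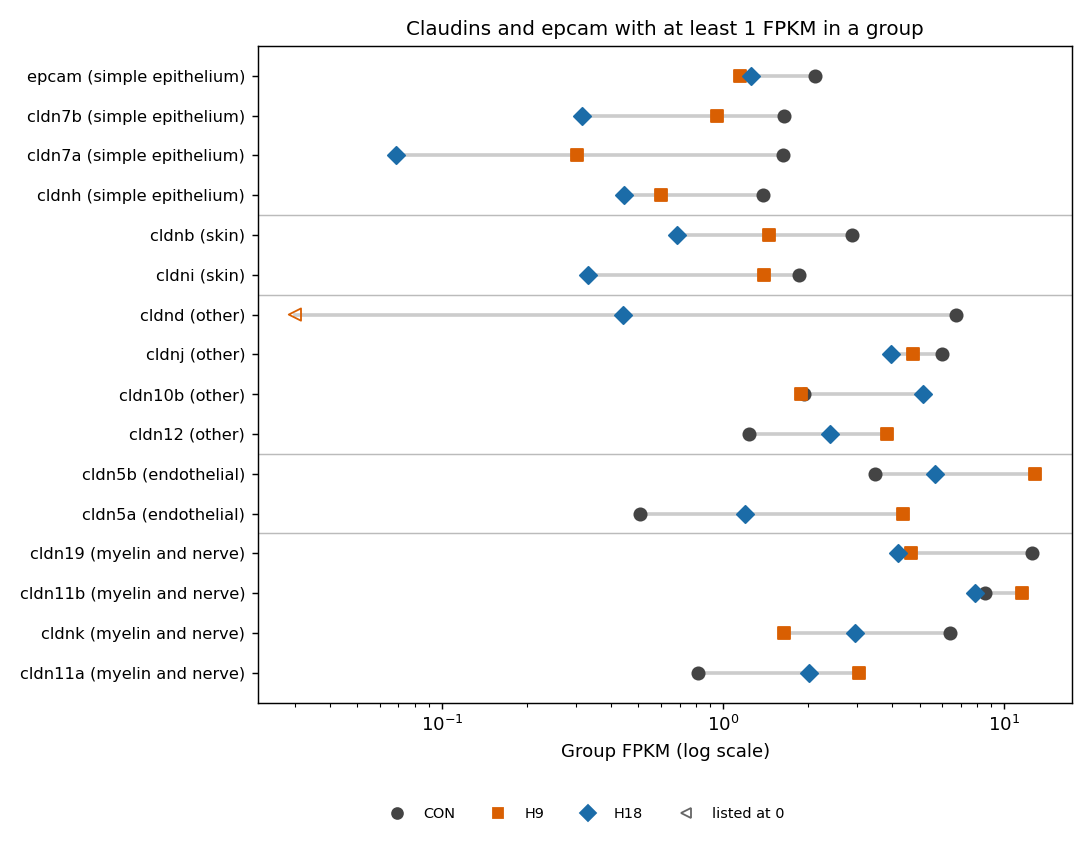
Group FPKM (log axis) of the 15 claudins and epcam that reached 1 FPKM, with symbols as in the plot of keratin levels and the class in brackets. cldn5a and cldn5b were highest in H9 (4.35 and 12.9 FPKM), the simple-epithelium and skin claudins shown were highest in CON, and cldnd was listed at 0 in H9. Of those highest in CON, cldn7a, cldn7b and cldnh entered the plot through CON alone. Members of these classes under 1 FPKM in every group are not shown, and some of them, such as cldn2 and cldn1, were highest in H9.

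The claudins outside these classes included the only member higher in H18 than in H9 by the 2-fold limit. cldn10b, whose mammalian relative forms ion pores, had 1.95 FPKM in CON, 1.89 at 9 h and 5.14 at 18 h, 2.64-fold above CON and 2.72-fold above H9. cldn12 had 1.24, 3.82 and 2.40 FPKM, 3.09-fold higher in H9 than in CON. cldnj was within 2-fold in each comparison, with 5.99, 4.75 and 3.96 FPKM. cldnd (chromosome 21, 25740839 to 25741593) had 6.73 FPKM in CON, was listed at 0 in H9 and had 0.439 FPKM in H18. The members close to cldnd on chromosome 21, cldnb, cldnc and cldnh, were not at 0 in any group. The locus of cldn17 and that of cldn8 on chromosome 15 are given with the same ends (42604012 to 42637648), so the values of these 2 genes, at most 0.118 FPKM, are uncertain.

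The other genes of epithelial junctions were mostly within 2-fold between CON and H9. Over all features, 50.8% passed the 2-fold limit in that comparison and 52.9% in CON vs. H18. Of 16 desmosome genes in the table, which anchor keratin filaments to the membrane, 8 reached 1 FPKM in CON vs. H9, 0 were higher and 1 was lower. The lower one was the plakophilin gene pkp1a (1.01, 0.101 and 0.200 FPKM). perp, a desmosome gene of skin, had 9.72, 11.1 and 6.01 FPKM, within 2-fold. The median log2 fold change of the desmosome genes was 0.12 (H9) and -0.47 (H18) against CON. Among 28 tight and adherens junction genes in the table, 16 reached 1 FPKM. Of these, 2 were higher and 1 lower in H9 than in CON, and 0 were higher and 4 lower in H18, with medians of -0.09 and -0.52. The genes higher in H9 were marveld1, which encodes a membrane protein of the MARVEL family (2.30, 12.97 and 4.46 FPKM), and the junction adhesion gene f11r (2.34, 5.23 and 4.71 FPKM). Its relative jam3a was lower in both (4.85, 1.63 and 1.095 FPKM). Only 3 of 17 epithelial regulators reached 1 FPKM in CON vs. H9, with 1 higher and 2 lower. Of the other intermediate filament genes, 8 of 10 reached 1 FPKM, with 1 higher and 2 lower in H9 than in CON. The nuclear lamin gene lmna was higher (4.87, 14.9 and 14.8 FPKM) and synm, which encodes a partner of desmin, was lower (23.7, 2.38 and 3.28 FPKM).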

How the data were processed

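RNA was ribosome-depleted and sequenced by the authors, who aligned the reads to GRCz10 with TopHat2 2.0.13 and Bowtie2 2.2.1 and ran Cuffdiff 2.2.1 with correction for multiply mapped reads and upper-quartile normalization. The deposited FPKM hold 1 value for each group, which combines its libraries. The authors' fold changes, p-values and q-values in the same tables hold their own comparisons and were not used. A count table with 14 columns was not used, because its column names match no label, so the planned edgeR tests were not run. Of 31014 features, 12 had a group value that differed by over 0.1% between tables, among them 0 members.

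Log2 fold changes used FPKM plus 0.1, a minimum of 1 FPKM in a compared group and a limit of 2-fold. All members that reached 1 FPKM in a group are named with their values. The members, classes and lists were chosen with earlier results of these data known. Of 50 members, 49 matched RefSeq (GRCz12tu, names only) by Entrez identifier. A listed gene found under 2 symbols was counted once. Locus starts, which CuffDiff counts from 0, are given from 1. Alternatives were pseudocounts of 1 and 0.01, no filter, a minimum of 5 FPKM, limits of 1.5-fold and 4-fold, and centring on the median of all features. Python 3.11.15, numpy 2.4.6, pandas 2.3.3 and matplotlib 3.10.9 were used.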

Additional observations from a re-analysis of the deposited data

How the results depend on the processing

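No paired analysis was possible because each group has 1 combined FPKM and the columns carry no replicate number. For the same reason no library was left out, and the planned count tests (edgeR, DESeq2, other size factors, count filters, other adjusted p limits) were not run. Of the members, 16 (H9 against CON), 19 (H18 against CON) and 8 (H18 against H9) were called. In the same order, no filter on FPKM gave 25 of 48, 28 of 45 and 22 of 48 called, where 43.8%, 45.8% and 27.1% of all features passed. At least 5 FPKM gave 9 of 14, 10 of 14 and 5 of 11, beside 58.9%, 63.0% and 21.2% of all features. A limit of 4-fold gave 5 of 26, 9 of 25 and 4 of 21, beside 21.1%, 24.0% and 6.65%, and the 1.5-fold limit of the study 21 of 26, 23 of 25 and 11 of 21, beside 69.2%, 70.6% and 43.3%. The median log2 fold change of the simple-epithelium class turned to 0.84 (H9 against CON) and 0.94 (H18 against CON) with at least 5 FPKM, where only krt8 and krt18 were left, and to -0.48 (H18 against H9) with no filter. For the skin class, a pseudocount of 1 gave -1.42 (H18 against CON) and -1.39 (H18 against H9), and no filter gave -2.07 in CON vs. H18. In H9 against CON, no filter gave -0.39 for the skin class over 19 genes, with 7 higher and 4 lower. Centring on the median of all features changed the call of 2 members, both in CON vs. H18: cldnk was no longer lower (-0.999) and cldn12 became higher (1.01). A pseudocount of 1 ended 7 calls (cldnh and krt97 in H9 against CON, cldn5a, cldn11a, cldnk and cldnh in H18 against CON, and cldni in H18 against H9). No call of a single member changed direction under any setting. Levels under 1 FPKM rest on few reads of unknown number.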

Other observations

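The symbol rule leaves out 16 features that the tables describe as a claudin (13) or a keratin (3), of which 4 reached 1 FPKM in a group. They were chosen after their values were seen. The one with the highest level, LOC100334365 (claudin-9-like), had 26.1, 2.55 and 4.08 FPKM in CON, H9 and H18, above every named claudin in CON. It was 10.2-fold lower in H9 and 6.399-fold lower in H18 than in CON. LOC554386, described as similar to claudin domain containing 1, had 4.47, 7.28 and 4.73 FPKM, within 2-fold in each comparison. zgc:64190 (claudin domain containing 1a) had 1.21, 0.582 and 0.153 FPKM, and LOC100002327 (putative claudin-24) had 0.697, 1.26 and 0.346 FPKM.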
